A study of Mus musculus with 12 samples.

Results

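The 38 genes described here encode enzymes and membrane proteins of the lysosome. They were taken by gene symbol from a list of lysosomal genes, out of 23764 genes in the expression table, and cathepsin K (Ctsk) was not among them. The list held 10 proteases, 6 membrane proteins, 11 glycosidases, 4 sulfatases, 6 lipid hydrolases or lipid-handling proteins, and progranulin. All 38 were in the table, and 37 averaged 10 or more normalized counts in 1 or more of the 6 groups. Ctsh, the gene of the aminopeptidase cathepsin H, was the exception, at 0 to 5.65 normalized counts per library, and was not tested.

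Expression was measured by RNA sequencing of RAW264.7 cells, a macrophage-like immortal line derived from a Balb/c mouse. All cultures were given RANKL, the cytokine under which macrophage precursors become osteoclasts, at 100 ug/ml in the labels' words. The treatment groups also received culture supernatant of the bacterium Lactobacillus reuteri, and the vehicle groups MEM-alpha medium. Cells were collected on 3 days (1, 3 and 5), and each of the 6 groups has 2 libraries, 12 in all. There was no culture without RANKL among the 6 groups, so changes over days are described for RANKL-stimulated cells only. Whether the numbered libraries of a group are separate cultures is not stated in the labels, so p-values measure a spread between libraries that may be technical.

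Lysosomes are acidic organelles in which hydrolases break down proteins, glycans, sulfated polysaccharides and lipids brought in by endocytosis, phagocytosis and autophagy. Most of the soluble enzymes reach the lysosome by a mannose 6-phosphate tag and its receptors, and the membrane glycoproteins line the organelle from the inside. Macrophages are rich in these enzymes, and osteoclasts fuse lysosome-related vesicles with the membrane that faces bone. Many lysosomal genes carry a short palindromic element in their promoters that is bound by TFEB and related MiT/TFE factors.

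The promoter windows are shown because many lysosomal genes carry the element named above and because Ctsl was the member with the largest treatment difference in the fit at every day. RefSeq windows from 250 bases before to 50 after the gene start, on build GRCm38.p6, were found for 33 of the 38 genes. The members without a window were Ctsb, Ctsh, Galns, Npc1 and Asah1. The palindrome CACGTG, which reads the same on both strands, was in the window of 10 of 33 members (30.3%) and of 8.09% of 27025 genes. The longer palindrome TCACGTGA, which contains CACGTG, was in 3 of 33 members (9.09%), Ctsa, Ctsd and Gla, and in 1.12% of 27025 genes. The form TCACGTG, on either strand, was in 9 of 33 members (27.3%) and in 4.29% of 27025 genes, and Ctsl was not among them. A match of these letters is a description of the sequence, not a mapped binding site. No link between the element and the treatment differences was tested. Capitals below mark CACGTG, or TCACGTGA where the longer form is present, and each sequence runs 5′ to 3′ on the strand of its gene. The Ctsl window is chr13:64370471-64370770 on the minus strand, with 1 CACGTG that starts at -236 from the gene start. The Ctsd window is chr7:142387778-142388077 on the minus strand, with 1 of each form. The Gla window is chrX:134600956-134601255 on the minus strand, with 2 copies of the longer form, and the Lamp1 window is chr8:13158911-13159210 on the plus strand, with 4 copies of CACGTG close to the gene start.
Ctsl: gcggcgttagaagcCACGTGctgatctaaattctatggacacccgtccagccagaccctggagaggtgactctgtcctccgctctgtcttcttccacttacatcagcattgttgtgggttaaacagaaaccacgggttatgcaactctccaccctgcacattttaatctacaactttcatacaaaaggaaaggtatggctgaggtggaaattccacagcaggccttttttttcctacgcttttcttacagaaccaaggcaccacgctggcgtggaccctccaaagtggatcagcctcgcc
Ctsd: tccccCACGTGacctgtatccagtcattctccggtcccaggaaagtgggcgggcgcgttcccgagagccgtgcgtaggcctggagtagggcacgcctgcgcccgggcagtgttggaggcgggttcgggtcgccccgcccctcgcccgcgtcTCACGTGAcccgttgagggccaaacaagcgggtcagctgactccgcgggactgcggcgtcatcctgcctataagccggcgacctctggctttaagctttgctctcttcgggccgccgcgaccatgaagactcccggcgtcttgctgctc
Gla: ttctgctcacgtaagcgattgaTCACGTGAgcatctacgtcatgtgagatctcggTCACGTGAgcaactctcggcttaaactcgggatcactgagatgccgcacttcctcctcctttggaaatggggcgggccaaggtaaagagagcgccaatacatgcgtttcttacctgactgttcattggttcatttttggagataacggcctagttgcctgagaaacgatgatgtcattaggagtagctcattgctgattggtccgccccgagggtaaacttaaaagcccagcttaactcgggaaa
Lamp1: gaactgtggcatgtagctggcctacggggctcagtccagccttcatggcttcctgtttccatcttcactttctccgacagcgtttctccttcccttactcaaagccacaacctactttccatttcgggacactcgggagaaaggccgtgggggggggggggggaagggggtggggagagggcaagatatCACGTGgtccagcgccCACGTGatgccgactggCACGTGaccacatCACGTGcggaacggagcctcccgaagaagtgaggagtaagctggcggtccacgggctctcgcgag

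The libraries held 8071160 to 16781080 reads on genes. The second libraries of days 3 and 5 in either arm differed from the remaining 8 in composition. Nuclear protein-coding genes took 38.1% to 48.8% of reads in those 4, against 85.2% to 87.6% elsewhere. The deposited values are scaled to an equal total over all genes, so the same protein-coding transcript reads lower in those 4 libraries. The libraries to test were chosen for this reason, and with earlier results known in which all 12 libraries together gave no calls. Tests were made on 8 libraries, both replicates of day 1 and replicate 1 of days 3 and 5, in 1 limma fit. "Rose" and "fell" below mean a Benjamini-Hochberg adjusted p under 0.05 over 14715 genes in that fit, and log2 differences are of log2(normalized count + 1). Only day 1 had replicates in that fit, which left 2 residual degrees of freedom, and the single libraries of days 3 and 5 were assumed to vary like those of day 1. Values of replicate 2 of days 3 and 5, also after rescaling to nuclear protein-coding reads, are given beside the main results. With any 1 of the day 1 libraries left out, 0 of 14715 genes passed for treatment on any day or for the difference between days, so no treatment call below held without each of them. With all 12 libraries in the fit and no block, 0 of 37 members and 0 of 14715 genes passed in any comparison.

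The summed share of the 38 genes among nuclear protein-coding reads was 1.62% and 1.58% in the treated libraries of day 1, against 1.40% and 1.30% in the vehicle libraries. Day 3 had 1.50% and 1.25% with treatment, against 1.51% and 0.912% with vehicle, in the order replicate 1 and replicate 2. Day 5 had 2.32% and 2.68% with treatment, against 2.20% and 2.49% with vehicle. Every day 5 library was above every library of days 1 and 3 on this scale, and the treated and vehicle libraries did not overlap at day 1. Among all gene reads the first of these did not hold. There replicate 2 of day 5 had 1.31% with treatment, against 1.40% and 1.35% at day 1, and 1.02% with vehicle, against 1.20% and 1.11%. The sum is weighted to abundant genes, and the proteases made up 1.24% of the 2.20% in vehicle replicate 1 of day 5.

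**Figure D1:**
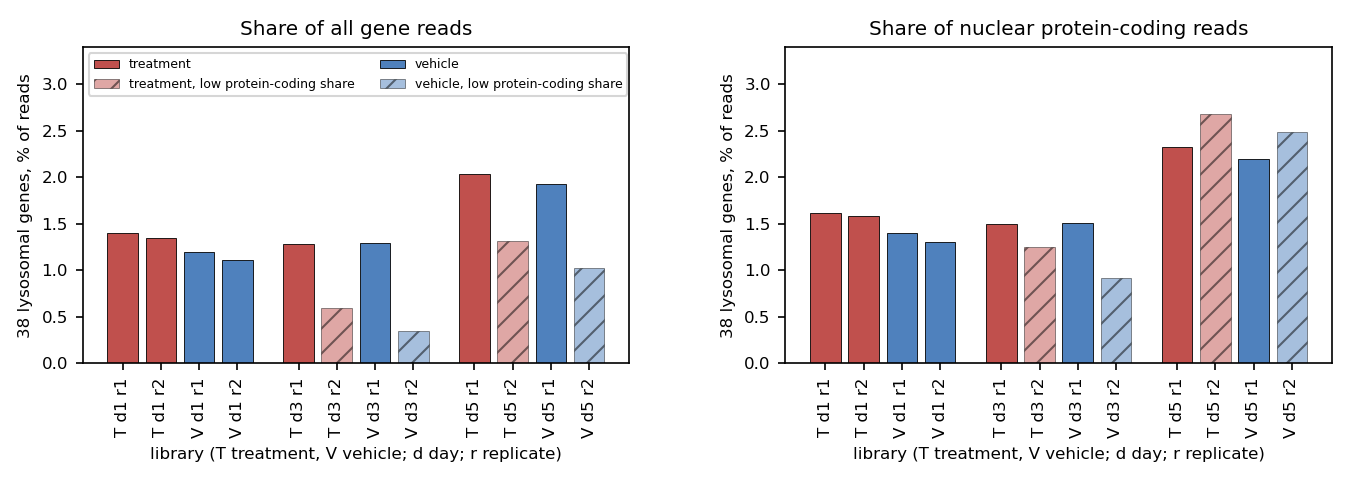
Summed share of the 38 lysosomal genes, in percent, per library, among all gene reads (left) and among nuclear protein-coding reads (right). Each bar is 1 library, and hatched bars are the 4 libraries with a low protein-coding share. On the right the day 5 bars lie between 2.20% and 2.68%, above all others.

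With treatment, transcripts were higher at day 1 for 4 lysosomal cysteine proteases and for several glycan and cholesterol-handling proteins. Of 37 members 9 rose, 1 fell and 27 did not pass, where 3.12% of all genes tested rose and 2.62% fell (5.74% in either direction). The median log2 difference was 0.09 over the members and -0.04 over all genes, and 27 members were higher and 10 lower. Leaving out any 1 of the 4 day 1 libraries, or testing all genes without the filter on low values, left 0 members past the threshold. The fit without the filter called 1.07% of all genes. Limma-voom on recovered reads called 18 members, where it called 13.6% of all genes.

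Ctsl, which encodes the endopeptidase cathepsin L, had 12204 and 11608 normalized counts in the treated libraries of day 1, against 7872 and 7003 in the vehicle libraries. Its mean was 11906 ± 421 with treatment and 7437 ± 615 with vehicle (SD, n = 2 each), a log2 difference of 0.68 (SE 0.07, adjusted p = 0.0153). Ctsb, the gene of the cysteine protease cathepsin B, had 36837 and 35678 normalized counts with treatment, against 26121 and 22554 with vehicle. It rose by 0.58 (SE 0.09, adjusted p = 0.034). Ctsz, the gene of the carboxypeptidase cathepsin Z, rose by 0.43 (adjusted p = 0.0452), with 6012 and 5764 normalized counts against 4692 and 4075. Ctss, which encodes cathepsin S, a protease that trims the invariant chain in antigen-presenting cells, rose by 0.29 (adjusted p = 0.0401), with 9816 and 10050 normalized counts against 8199 and 8025. All 9 tested proteases were higher with treatment at day 1, and 5 of them did not pass. Ctsd, the gene of the aspartic protease cathepsin D, had a log2 difference of 0.21 (adjusted p = 0.148), with 18929 and 17986 normalized counts against 16691 and 15339. Lgmn, which encodes an asparagine-specific endopeptidase, had 3596 and 3460 normalized counts with treatment, against 3523 and 3317 with vehicle, and these ranges overlapped.

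Of the 6 membrane proteins only Npc1 rose, the gene of a cholesterol exporter of the lysosomal membrane. It had 1444 and 1487 normalized counts in the treated libraries of day 1, against 1172 and 1198 in the vehicle libraries, a log2 difference of 0.31 (SE 0.05, adjusted p = 0.0302). Npc2, the soluble protein that hands cholesterol to the Npc1 protein, also rose by 0.31 (SE 0.05, adjusted p = 0.0316), with 5012 and 4816 normalized counts against 4025 and 3887. The lysosomal membrane glycoprotein genes did not pass. Lamp1 had 9368 and 9071 normalized counts with treatment, against 8982 and 8757 with vehicle, and a log2 difference of 0.06 (adjusted p = 0.535). Lamp2, which also serves chaperone-mediated autophagy, had a log2 difference of 0.08 (adjusted p = 0.326). The tetraspanin gene Cd63 had 0.28 (adjusted p = 0.0581) and the macrophage sialomucin gene Cd68 had 0.21 (adjusted p = 0.11). Of the 6 membrane protein genes 5 were higher with treatment.

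Of 11 glycosidases 3 rose at day 1 and none fell. Gla, the gene of alpha-galactosidase A, had 814 and 734 normalized counts with treatment, against 545 and 562 with vehicle, a log2 difference of 0.48 (SE 0.07, adjusted p = 0.0274). Naglu, which encodes an N-acetylglucosaminidase of heparan sulfate breakdown, rose by 0.46 (SE 0.08, adjusted p = 0.0438). Hexa, which encodes a hexosaminidase subunit, rose by 0.28 (SE 0.05, adjusted p = 0.0483). Of the 4 sulfatases 3 were lower with treatment and 1 of them passed. Arsb, which encodes the sulfatase of dermatan and chondroitin sulfate, had 848 and 822 normalized counts with treatment, against 1098 and 1091 with vehicle. It averaged 835 ± 18.4 with treatment and 1094 ± 5.33 with vehicle (SD, n = 2 each), fell by 0.39 (SE 0.04, adjusted p = 0.0177) and was the only member that fell at day 1. Among lipid hydrolases, Lipa, the acid lipase gene, had a log2 difference of -0.17 (adjusted p = 0.0948). Grn, the gene of progranulin, a secreted protein that is cut into granulins in the lysosome, had 0.25 (adjusted p = 0.0951).

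**Figure D2:**
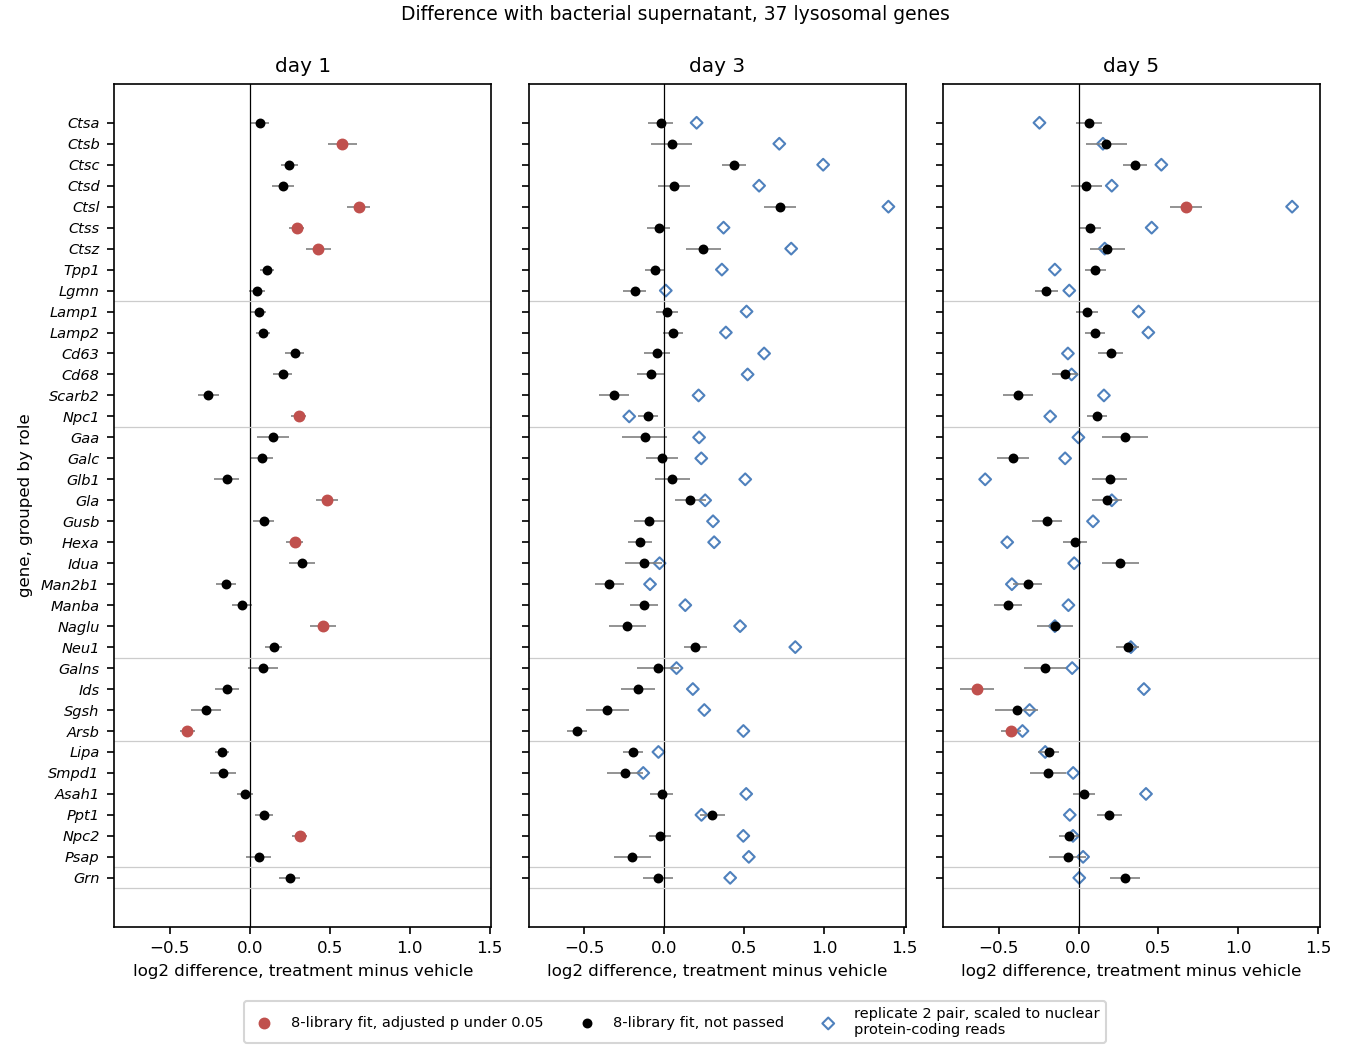
Log2 difference, treatment minus vehicle, of 37 lysosomal genes by role at days 1, 3 and 5. Filled points are the 8-library limma fit with the SE as bar, red where the adjusted p was under 0.05, and open diamonds are the replicate 2 pair after rescaling to nuclear protein-coding reads. Ctsl lies farthest to the right in each panel, at 0.68, 0.73 and 0.67 in the fit.

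At day 3 Ctsl again had the largest treatment difference among the members, but 0 of 37 passed the adjusted threshold, where 0.116% of all genes tested rose and 0.0% fell. At an unadjusted p under 0.05 there were 10 members, where 12.3% of all genes passed, and limma-voom called 3, where it called 2.32%. The Ctsl count was 5618 in treated replicate 1, against 3398 in vehicle replicate 1, a log2 difference of 0.73 (SE 0.10, adjusted p = 0.098). In replicate 2 it was 1242 with treatment, against 381 with vehicle. The replicate 2 difference was 1.70, and 1.40 after rescaling to nuclear protein-coding reads, so the treated library was higher in either pair. Arsb had 1106 normalized counts with treatment, against 1613 with vehicle, in replicate 1, a log2 difference of -0.54 (SE 0.06, adjusted p = 0.0749). In replicate 2 Arsb had the opposite order, 328 with treatment against 188 with vehicle, and a log2 difference of 0.50 after rescaling.

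Ctsb, Ctsd and Lamp1 differed little between arms in replicate 1 of day 3 and were higher with treatment in replicate 2. Ctsb had 23215 normalized counts with treatment, against 22454 with vehicle, in replicate 1, and 10535 against 5183 in replicate 2. Ctsd had 15178 against 14541 in replicate 1, and 10678 against 5734 in replicate 2. Lamp1 had 9838 against 9734 in replicate 1, and 1532 against 869 in replicate 2. In the replicate 2 pair all 37 members had a positive difference, with a median of 0.66 beside 0.46 over all genes. Among the other role examples, the log2 differences in the fit lay between -0.20 for Lipa and 0.06 for Lamp2, with Lgmn at -0.19, Npc1 at -0.10, Cd68 at -0.08, Cd63 and Grn at -0.04 and Ctss at -0.03. After rescaling to nuclear protein-coding reads 32 of the 37 replicate 2 differences were positive and 5 negative, with a median of 0.36 beside 0.16 over all genes. The protein-coding share itself differed in that pair, at 47.1% with treatment and 38.1% with vehicle, and its part in these differences was not tested beyond the rescaling.

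At day 5 Ctsl rose, and Arsb and the iduronate sulfatase gene Ids fell. These were 1 of 37 members up and 2 down, where 2.54% of all genes tested rose and 3.27% fell (5.81% in either direction), and 34 did not pass. Ctsl had 15034 normalized counts with treatment, against 9435 with vehicle, in replicate 1, a log2 difference of 0.67 (SE 0.10, adjusted p = 0.0317). In replicate 2 it had 4362 with treatment, against 1451 with vehicle, and the difference was 1.59, or 1.34 after rescaling. Arsb had 2072 normalized counts with treatment, against 2780 with vehicle, in replicate 1, and fell by 0.42 (SE 0.06, adjusted p = 0.0309). Its replicate 2 values were 697 against 746, a difference of -0.10, or -0.35 after rescaling. Thus Arsb was lower with treatment in both pairs of day 5, as in both pairs of day 1, and not in the replicate 2 pair of day 3. Ids had 1259 normalized counts with treatment, against 1955 with vehicle, in replicate 1, and fell by 0.63 (SE 0.11, adjusted p = 0.0394). In replicate 2 it was 393 with treatment against 249 with vehicle, and 0.41 after rescaling, so the 2 pairs went in opposite directions. Leaving out any 1 of the 4 day 1 libraries, from which the spread was estimated, left 0 of these 3 calls, and limma-voom called 11 members, where it called 13.3% of all genes.

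The other role examples did not pass at day 5. The log2 difference was 0.17 for Ctsb (adjusted p = 0.445), 0.05 for Ctsd (adjusted p = 0.798) and 0.07 for Ctss (adjusted p = 0.564). It was 0.05 for Lamp1 (adjusted p = 0.675), 0.10 for Lamp2 (adjusted p = 0.347) and -0.08 for Cd68 (adjusted p = 0.573). Grn had the largest of these differences, 0.29 (adjusted p = 0.132), and 0.26 in replicate 2, or 0.0046 after rescaling. The differences were 0.20 for Cd63 (adjusted p = 0.2), 0.12 for Npc1 (adjusted p = 0.324), -0.19 for Lipa (adjusted p = 0.151) and -0.20 for Lgmn (adjusted p = 0.163). Of the 9 tested proteases 8 were higher with treatment in the fit, and all 9 were higher in the replicate 2 pair, with 6 of 9 after rescaling. Genes in general were also higher in that pair before rescaling. Its median was 0.42 over the proteases and 0.22 over the members, beside 0.23 over all genes, and 32 of 37 members were higher. After rescaling these medians were 0.16, -0.03 and -0.01, and 16 of 37 members were higher. All 4 sulfatases were lower with treatment in the fit, and 3 of 4 in the rescaled replicate 2 pair.

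Across the 3 days the Ctsl difference was 0.68, 0.73 and 0.67 in the fit. A test of whether the treatment effect differed between days passed for 0 of 37 members, where 0.102% of all genes tested passed. At an unadjusted p under 0.05 there were 10 members, where 17.9% of all genes passed, and limma-voom called 5, where it called 6.61%. Ctsb had 0.58, 0.05 and 0.17 over the days, and Naglu had 0.46, -0.23 and -0.15, but neither passed that test.

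**Figure D3:**
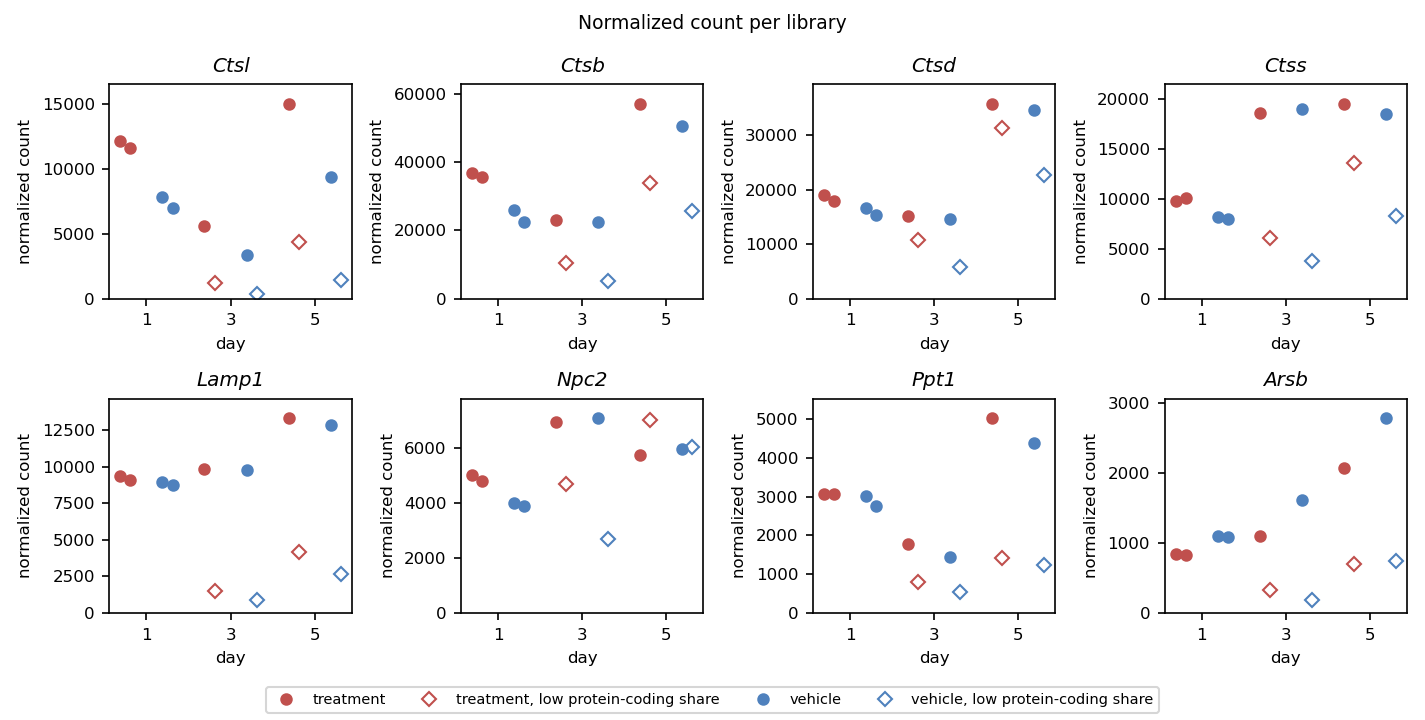
Normalized counts of 8 members per library by day, with treated libraries left of vehicle libraries. Open diamonds are the 4 libraries with a low protein-coding share. Ctsl is higher with treatment in each pair of libraries, at 15034 against 9435 in replicate 1 of day 5, and Arsb is lower with treatment in each pair except replicate 2 of day 3.

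From day 1 to day 3 the members split, with a decline of some proteases beside a rise of others, in the replicate 1 libraries of both arms. In treated cells 7 of 37 members rose and 9 fell, where 10.8% of all genes tested rose and 9.13% fell (20.0% in either direction). In vehicle cells 10 rose and 4 fell, where 9.69% rose and 10.0% fell (19.7% in either direction). Ctss, Npc2, Grn, Sgsh, Arsb, Manba and Tpp1 rose in both arms, and Ctsl, Ctsc, Ppt1 and Neu1 fell in both. The member medians were -0.09 with treatment and 0.10 with vehicle, beside 0.07 and 0.04 over all genes. Without vehicle day 1 replicate 1 or 2 no vehicle call of a member held, and without treatment day 1 replicate 1 or 2 no treatment call did. Few calls of any gene held in those fits. Without a day 1 library of the other arm the counts were 4 for treatment, beside 3.7% to 3.88% of all genes, and 10 for vehicle, beside 9.6% to 9.7%. Without the filter on low values they were 8 and 7, beside 7.24% and 7.62% of all genes.

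Ctss had 18577 normalized counts in treated replicate 1 of day 3, against 9816 and 10050 in the treated libraries of day 1, and rose by 0.90 (SE 0.06, adjusted p = 0.00233). In vehicle cells it had 19028 at day 3, against 8199 and 8025 at day 1, and rose by 1.23 (SE 0.06, adjusted p = 0.000938). Npc2 rose by 0.50 with treatment (adjusted p = 0.00681) and by 0.84 with vehicle (adjusted p = 0.00168). Ctsl, in contrast, had 5618 in treated replicate 1 of day 3, against 12204 and 11608 at day 1, and fell by 1.08 on the log2 scale (SE 0.09, adjusted p = 0.0031). In vehicle cells it had 3398 at day 3, against 7872 and 7003 at day 1, and fell by 1.13 (SE 0.09, adjusted p = 0.0021). Ctsc, which encodes a dipeptidyl peptidase that activates granule proteases, fell by 0.78 with treatment and by 0.97 with vehicle (adjusted p = 0.00314 and 0.00159). Ppt1, the gene of a thioesterase that removes palmitate from proteins, fell by 0.78 with treatment and by 0.99 with vehicle (adjusted p = 0.00339 and 0.00159). Ctsb fell by 0.64 with treatment (adjusted p = 0.0187), and in vehicle cells its log2 difference was -0.11 (adjusted p = 0.524). Lamp1 had 0.09 with treatment and 0.13 with vehicle and passed in neither arm, as did Ctsd at -0.28 and -0.14 and Lipa at 0.13 and 0.16. Lamp2 fell with treatment (-0.23) and had -0.20 with vehicle, Npc1 fell with treatment (-0.40) and had 0.01 with vehicle, and Lgmn fell with treatment (-0.29) and had -0.06 with vehicle. Cd63 and Cd68 rose with vehicle, by 0.58 and 0.39, and had 0.26 and 0.10 with treatment, and Grn rose by 0.42 with treatment and by 0.71 with vehicle.

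The replicate 2 libraries of day 3 were all lower than day 1 replicate 2 on the deposited scale for these genes. For Ctss the difference was -0.72 with treatment and -1.07 with vehicle, or 0.13 and 0.09 after rescaling. For Npc2 it was -0.04 and -0.53, or 0.82 and 0.64 after rescaling. Ctsl, Ctsc, Ppt1 and Ctsb were lower on either scale, and after rescaling Ctsl differed by -2.37 and -3.03, Ctsc by -2.45 and -3.16, Ppt1 by -1.11 and -1.18, and Ctsb by -0.90 and -0.96. Arsb, which rose in the fit, differed by -0.47 and -1.37 after rescaling. In the replicate 2 libraries, rescaled to nuclear protein-coding reads, the day 3 value was above the day 1 replicate 2 value for 13 of 37 members with treatment and for 11 of 37 with vehicle. All genes were also mostly lower in the vehicle pair. Its median difference was -1.95 over the members beside -1.67 over all genes on the deposited scale, and -0.79 beside -0.54 after rescaling.

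At day 5 against day 1 the list was broadly higher in the replicate 1 libraries of both arms. In treated cells 25 of 37 members rose and 0 fell, where 12.9% of all genes tested rose and 18.1% fell (31.0% in either direction), and 28 members passed at an unadjusted p under 0.05 in either direction, as did 43.2% of all genes. In vehicle cells 30 rose and 0 fell, where 14.4% rose and 15.0% fell (29.4% in either direction), and 32 passed at an unadjusted p under 0.05, as did 42.2% of all genes. The member medians were 0.34 with treatment and 0.58 with vehicle, beside -0.05 and -0.00 over all genes. The arms shared 23 members that rose, which is 23 of 25 with treatment and 23 of 30 with vehicle. By role, 8 of 9 proteases, 3 of 6 membrane proteins, 6 of 11 glycosidases, 2 of 4 sulfatases and 5 of 6 lipid-handling genes rose with treatment. With vehicle these were 8 of 9, 5 of 6, 7 of 11, 4 of 4 and 5 of 6, and Grn rose in both arms. Without 1 of the treated day 1 libraries the treatment count was 12, beside at least 11.4% of all genes, and without 1 of the vehicle ones it was 16, beside 16.5%. The vehicle count was 23 without 1 of the treated day 1 libraries, beside 17.7% of all genes. It was 10 without vehicle day 1 replicate 1 and 9 without vehicle day 1 replicate 2, beside 5.98% and 4.86%. Without the filter on low values 11 members passed with treatment and 14 with vehicle, beside 11.1% and 10.2% of all genes.

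Arsb had the largest change of the members in the fit in either arm. It had 2072 normalized counts in treated replicate 1 of day 5, against 848 and 822 at day 1, and rose by 1.31 (SE 0.05, adjusted p = 0.00128). In vehicle cells it had 2780 at day 5, against 1098 and 1091 at day 1, and rose by 1.34 (SE 0.05, adjusted p = 0.000891). In replicate 2 Arsb differed from day 1 by -0.24 with treatment and -0.55 with vehicle, or 0.56 and 0.51 after rescaling, below Ctsd, Hexa and Sgsh there. Ctsd had 35651 in treated replicate 1 of day 5, against 18929 and 17986 at day 1, and rose by 0.95 (SE 0.08, adjusted p = 0.00273). In vehicle cells Ctsd had 34500 at day 5, against 16691 and 15339 at day 1, and rose by 1.11 (SE 0.08, adjusted p = 0.00174). Ctss rose by 0.97 with treatment and by 1.19 with vehicle, Hexa by 0.73 and 1.03, and Sgsh, the heparan sulfamidase gene, by 0.83 and 0.94. Ctsb rose by 0.65 with treatment (adjusted p = 0.0118) and by 1.06 with vehicle (adjusted p = 0.00344). The membrane glycoprotein genes followed, with Lamp1 at 0.53 in either arm and Lamp2 at 0.65 with treatment and 0.63 with vehicle. Ctsl, which had been lower at day 3, rose by 0.34 with treatment (adjusted p = 0.0393) and by 0.35 with vehicle (adjusted p = 0.0381). Grn rose by 0.68 with treatment and 0.64 with vehicle, Lgmn by 0.42 and 0.67, Lipa by 0.35 and 0.36, Cd68 by 0.30 and 0.59, and Gla by 0.54 and 0.84. Npc1 had 0.08 with treatment and did not pass, and rose by 0.27 with vehicle. Cd63 did not pass, at -0.03 with treatment and 0.05 with vehicle.

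**Figure D4:**
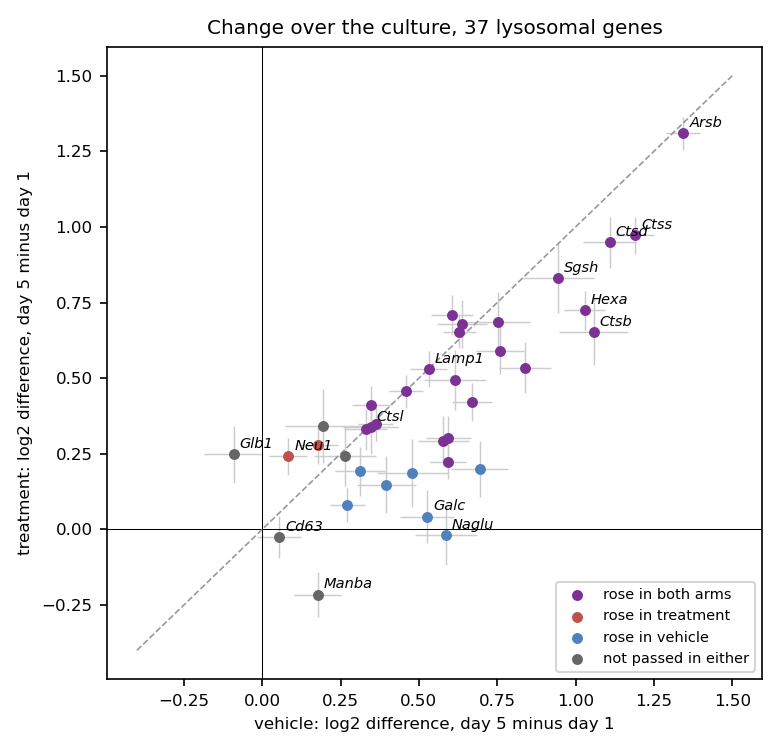
Log2 difference, day 5 minus day 1, of 37 lysosomal genes in treated cells (vertical) and vehicle cells (horizontal), with SE as bars, from the 8-library fit, in which day 5 is 1 library per arm. The 23 purple points rose in both arms. Arsb lies at the upper right, at 1.31 with treatment and 1.34 with vehicle.

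The replicate 2 libraries of day 5 gave a mixed picture on the deposited scale and a broader one after rescaling. On the deposited scale 11 of 37 members with treatment and 10 of 37 with vehicle were above day 1 replicate 2. After rescaling to nuclear protein-coding reads these were 23 of 37, with a median of 0.18 beside -0.14 over all genes, and 24 of 37, with a median of 0.41 beside -0.18. Ctsd, Ctss, Hexa, Npc2 and Sgsh were higher in either arm there, Ctsd by 1.60 with treatment and 1.62 with vehicle. Hexa was higher there by 1.24 and 1.99, Sgsh by 1.52 and 1.55, Ctss by 1.24 and 1.12, and Ctsb by 0.73 and 1.25. Ctsl, Ctsc, Lamp1, Lamp2, Asah1, Scarb2 and Ids were lower in either arm, Lamp1 by -0.32 and -0.64 and Ctsl by -0.61 and -1.21. So the day 5 rise of Ctsl, Lamp1 and Lamp2 was seen in the replicate 1 libraries and not in the replicate 2 libraries on either scale.

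Within a replicate number, day 5 was above day 3 for most members. In replicate 1 this held for 33 of 37 members with treatment and 31 of 37 with vehicle, with medians of 0.44 and 0.42. In replicate 2 it held for 36 of 37 with treatment and 37 of 37 with vehicle, with medians of 0.79 and 1.15. After rescaling the replicate 2 medians were 0.74 and 1.04, with 36 of 37 members higher in either arm. These are values of single libraries, with no test. No count or median over all genes was made for day 5 minus day 3. Whether the members differed from other genes here was therefore not tested.

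Replicates 1 and 2 of days 3 and 5 differed gene by gene even on the rescaled values, and the genes named here were chosen after their values were seen. Of 37 members 18 were lower in replicate 2 in all 4 pairs (48.6%, beside 42.8% of 14636 genes with 1 row per symbol), and 3, Ctsa, Ctsz and Hexa, were higher in all 4 (8.11% beside 27.3%). Ctsc differed by -1.68 and -2.29 with treatment at days 3 and 5, and by -2.23 and -2.46 with vehicle, the largest of the members at day 5. Lamp1 differed more at day 3, by -1.83 with treatment and -2.32 with vehicle, and by -0.84 and -1.16 at day 5. Ctsz went the other way, by 1.07 and 1.40 with treatment, and by 0.53 and 1.41 with vehicle.

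**Figure D5:**
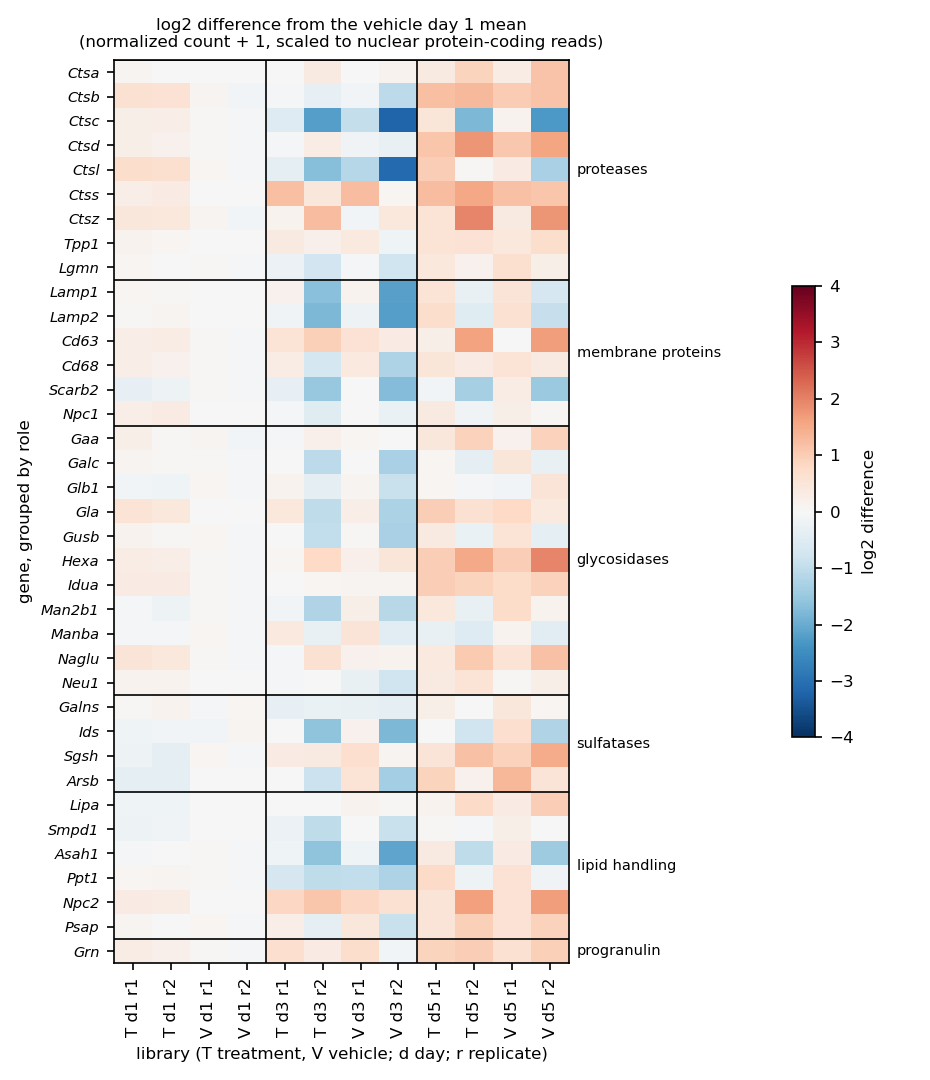
Log2 difference of each member from the vehicle day 1 mean in every library, after rescaling to nuclear protein-coding reads, with genes by role and treated libraries left of vehicle libraries. Ctsc, Ctsl, Lamp1, Lamp2, Scarb2, Asah1 and Ids are blue in replicate 2 of day 3 in both arms. Cd63, Npc2, Ctsz and Hexa are red in replicate 2 of day 5.

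The osteoclast state of the libraries also differed between replicate numbers at day 5. Acp5, the gene of tartrate-resistant acid phosphatase, had 21.1 normalized counts in treated replicate 1 and 772 in treated replicate 2 of day 5, against 35.9 and 1231 in the vehicle libraries. Ctsk, the collagen-degrading protease of osteoclasts, had 316 and 285 normalized counts with treatment at day 1, against 170 and 170 with vehicle. At day 3 the Ctsk counts were 1866 and 1414 with treatment, against 2086 and 581 with vehicle, and at day 5 they were 281 and 7164 against 299 and 6680. In replicate 1 of day 5, where most members rose, Acp5 did not pass against day 1 in either arm. Its log2 difference there was -0.23 with treatment and 1.13 with vehicle. Ctsk had a log2 difference there of -0.10 with treatment (adjusted p = 0.481) and rose by 0.81 with vehicle (adjusted p = 0.00418). The other tested markers went both ways there, with log2 differences given for treatment and then vehicle. Mmp9 had 2.11 and 2.07, Atp6v0d2 0.41 and 1.44, Oscar 0.94 and 0.53, and Itgb3 2.37 and 1.47. Ocstamp had -4.76 and -1.88, Car2 -1.38 and -2.02, Nfatc1 -0.998 and -0.92, and Dcstamp -0.89 and -0.84. The part of these osteoclast markers in the member values was not tested. Counts of other lists, here and below, are to be read beside the shares of all genes given above for the same comparisons. Of 10 tested osteoclast markers 3 rose with treatment at day 1, Ctsk, Car2 and Atp6v0d2, and 0 fell. At day 3 0 rose and 0 fell, and at day 5 Car2 rose and Ocstamp fell.

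Of 7 tested macrophage markers 0 rose or fell with treatment at day 1 and at day 3, and Adgre1 fell at day 5. From day 1 to day 5, 5 rose with treatment and 6 with vehicle, among them Lyz2, the lysozyme gene, by 0.99 and 1.52. The summed macrophage markers were 317852 and 139966 normalized counts in the treated libraries of day 5, in the order replicate 1 and replicate 2, against 169223 and 162466 in those of day 1. In vehicle cells they were 325492 and 76706 at day 5, against 133093 and 120899 at day 1. Rescaled to nuclear protein-coding reads, replicate 2 had 246782 with treatment at day 5, against 164070 at day 1, and 161083 with vehicle at day 5, against 121620 at day 1. The median replicate 2 difference of the 7 markers, day 5 minus day 1, was -0.43 with treatment and -1.0008 with vehicle, or 0.37 and 0.06 after rescaling, with 4 of 7 higher in either arm. At most 1 of 8 macrophage markers was at 0 in a library. Fibroblast, T cell, B cell, epithelial and endothelial markers summed to at most 15.5 normalized counts per list in any library, and none of their genes passed the filter. Since these are bulk samples, fewer cells of a type and less RNA per cell cannot be told apart.

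A second list held 34 other lysosomal genes, 33 of them tested. With treatment at day 1, 2 rose and 3 fell, among them Hyal1, the hyaluronidase gene, which rose by 0.78 (adjusted p = 0.0146, and 0.456 with the replicate block over 12 libraries). Hyal1 had 772 and 783 normalized counts with treatment, against 423 and 481 with vehicle. At day 3 none of the 33 passed, and at day 5, 2 fell and none rose. Acp2, a lysosomal acid phosphatase gene, was 1 of them (-0.57, adjusted p = 0.0241), and in replicate 2 its difference had the opposite sign, 0.30, or 0.05 after rescaling. From day 1 to day 5, 12 rose and 2 fell with treatment, and 14 rose and 1 fell with vehicle. From day 1 to day 3 these were 2 and 3 with treatment, and 10 and 2 with vehicle.

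Of 11 genes of lysosomal sorting none passed with treatment at day 1 or day 3. At day 5 Igf2r, the large mannose 6-phosphate receptor, fell by 0.55 (adjusted p = 0.0301) and Gga2, an adaptor for its transport, fell by 0.51 (adjusted p = 0.0344). Igf2r had 2769 normalized counts in treated replicate 1, against 4058 with vehicle, and 1019 against 767 in replicate 2, where the order was reversed. Gga2 was also higher with treatment in replicate 2, by 0.36, or 0.11 after rescaling, and Igf2r by 0.41, or 0.16. Between days 1 and 5 the log2 difference of Igf2r in the fit was -1.24 with treatment and -0.57 with vehicle. The other sorting genes went both ways. M6pr and Gnptab were lower in both arms, at -0.36 and -0.42 with treatment. Sort1, Gnptg, Gga3, Ap1g1, Ap3d1 and Lrp1 were higher in both, from 0.12 for Ap1g1 to 0.42 for Lrp1 with treatment. Gga1 and Gga2 were lower with treatment and higher with vehicle. Of 5 tested cathepsin inhibitors none passed with treatment at day 1 or day 3, and 2 fell at day 5. Cst3, the gene of cystatin C, an inhibitor of cysteine cathepsins, had 12231 normalized counts in treated replicate 1 of day 5 and 9785 in replicate 2, against 21513 and 13820 with vehicle. It fell by 0.81 in the fit (SE 0.09, adjusted p = 0.0199) and was lower in both pairs.

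Of 9 MiT/TFE factors and their mTORC1 inputs 3 rose with treatment at day 1 and none fell. These were Fnip2 (0.91, adjusted p = 0.00645), Fnip1 (0.63, adjusted p = 0.0102) and Flcn (0.63, adjusted p = 0.0483), which encode folliculin and its partners. Fnip2 had 5661 and 5514 normalized counts with treatment, against 2943 and 2996 with vehicle. With a replicate block over 12 libraries the adjusted p was 0.456 for Fnip2, 0.637 for Fnip1 and 1 for Flcn, and none of the 3 calls held with any day 1 library left out. Tfeb, named for its role after its values were seen, had 188 and 164 with treatment, against 196 and 259 with vehicle, and did not pass. At day 3 and at day 5 none of the 9 passed with treatment. Fnip2 was the gene of this list whose treatment effect differed between days (adjusted p = 0.0427). That call was lost with a pseudocount of 0.5, with any 1 of the day 1 libraries left out and in the 12-library fits, where 0 of 14715 genes passed (adjusted p of Fnip2 = 0.927 with the block).

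Exons of 12 of the 38 members overlap another gene in the reference annotation, Ctsb, Ctsz, Hexa, Npc1, Lamp1, Grn and Arsb among them, on the opposite strand in all but Glb1. No strand setting is stated for the counting, so reads of such neighbours could not be separated from those of the member.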

How the data were processed

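RNA was sequenced from 12 libraries (TruSeq kit, total RNA). The authors deposited 1 table of log2 values, a row per gene and a column per library. TopHat2, SAMtools, DESeq2 and build mm9 are named in the submitters' processing notes. Versions, annotation and counting step were not given in the sources used here. From the values, each is log2(normalized count + 8) with a lowest value of 3.0, normalized counts sum to the same total in every library, and 100% of positive values were whole reads within 0.02 reads after the offset was removed. No column of per-sample values was left unused. Of 24757 rows, 993 repeated rows were dropped. The reference annotation, of a build later than mm9, served for gene names, gene classes, exon overlaps and promoter windows. Limma tests, each 2-sided, (limma 3.58.1, R 4.3.3, trended prior, 3.24 prior degrees of freedom) were run on log2(normalized count + 1), which understates changes of low genes, over the 14715 genes with a mean of 10 or more in any of 6 groups.

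The members, the lists and the libraries of the main fit were chosen with earlier results of these data known. The rule for names took, per comparison, up to 8 members per direction that passed with the smallest p, and Ctsb, Ctsd, Ctsl, Ctss, Lamp1, Lamp2, Cd63, Cd68, Npc1, Lipa, Lgmn and Grn. It also took up to 4 genes with the smallest p of each other list. Not every gene it took is printed for each comparison, a gene of the other lists is not reported here, and members outside the rule were named after their values were seen. Alternatives were all 12 libraries with and without a replicate block, each day 1 library left out, no filter, a pseudocount of 0.5, the deposited log2 values, limma-voom on recovered reads, day 1 alone and rescaling to nuclear protein-coding reads. Tables and figures were made with pandas 2.3.3, numpy 2.4.6 and matplotlib 3.10.9 in Python 3.11.15.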

Additional observations from a re-analysis of the deposited data

How the results depend on the processing

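Counts of members past the threshold kept within 1.5 times of the reported ones with a pseudocount of 0.5, with the deposited log2 values, with rescaling to nuclear protein-coding reads on the 8 libraries, and at day 1 with its 4 libraries alone. With all 12 libraries and no block, 0 members passed in each comparison, beside 0 of 14715 genes. Without the filter, more genes were tested. For treatment at days 1, 3 and 5, 0, 1 and 2 members passed, beside 1.07%, 4.24% and 5.81% of all genes. For treated cells 8 and 11 passed at days 3 and 5 against day 1, beside 7.24% and 11.1%. For vehicle cells 7 and 14 passed, beside 7.62% and 10.2%. Limma-voom called 18, 3 and 11 for treatment at days 1, 3 and 5, and 5 for the difference between days. With 1 day 1 library left out, the count was 0 for treatment at each day and for the difference between days, and it lay between 0 and 4 and between 12 and 16 for treated cells at days 3 and 5, and between 0 and 10 and between 9 and 23 for vehicle cells. The cause of these changes was not tested.

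Over 14715 genes, deviations of equal replicate numbers from their group means correlated between arms at 0.0701, 0.899 and 0.897 on days 1, 3 and 5. Libraries of equal number thus deviated together at days 3 and 5 and hardly at day 1. The main fit had no replicate block. With a replicate block within each day over 12 libraries, 0 members passed for treatment at days 1, 3 and 5 and for the difference between days. Over all genes the shares were 0.0%, 0.0272% and 0.116% for treatment, and 0.0% for the difference between days. For treated cells 19 and 9 passed at days 3 and 5, of which 0 and 4 were higher, beside 49.0% and 41.4% of all genes. For vehicle cells 26 and 12 passed, of which 0 and 5 were higher, beside 63.6% and 51.4% of all genes. The block with rescaling to nuclear protein-coding reads was chosen after seeing the data. It gave 0 for treatment at each day, beside 0.0544%, 0.034% and 0.428% of all genes at days 1, 3 and 5. For treated cells it gave 19 (4 higher) and 17 (16 higher), beside 44.6% and 39.2% of all genes. For vehicle cells it gave 19 (3 higher) and 24 (21 higher), beside 54.4% and 45.4%.

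Of members that passed, signs turned in the 12-library fits and in no other alternative run. With the block, these were, over days, 4 of 16 and 12 of 25 in treated cells at days 3 and 5, and 8 of 14 and 14 of 30 in vehicle cells. Of them 0, 2, 3 and 5 passed the other way. With the block and rescaling they were 1, 4, 3 and 6, of which 0, 1, 1 and 2 passed the other way. The last were Ctsc in treated cells at day 5 (-0.90, adjusted p = 0.00346), and in vehicle cells Cd68 at day 3 and Asah1 (-0.55, adjusted p = 0.0186) and Scarb2 (-0.60, adjusted p = 0.0251) at day 5. For the genes that the naming rule took, the log2 differences in the 12-library fits, equal with and without the block, were 0.0125 for treatment at day 5 for Ids. For treated cells at day 3 they were -0.34 for Manba, -0.28 for Tpp1, -0.19 for Grn and -0.47 for Arsb, and with the block -1.25 for Lamp1 and -0.84 for Cd68. For treated cells at day 5 they were -0.56 for Ctsl, -0.31 for Lamp1, -0.36 for Lamp2, -0.19 for Cd68, -0.20 for Ppt1 and -0.13 for Lgmn, and with the block -0.58 for Npc1. For vehicle cells at day 3 they were -0.13 for Cd63, -1.01 for Cd68, -0.54 for Manba, -0.19 for Sgsh, -0.47 for Tpp1, -0.28 for Grn and -0.99 for Arsb, and with the block -1.61 for Lamp1, -0.48 for Lipa and -0.72 for Npc1. For vehicle cells at day 5 they were -1.004 for Ctsl, -0.60 for Lamp1, -0.68 for Lamp2, -0.05 for Cd68, -0.37 for Npc1 and -0.077 for Lgmn. With the block and rescaling they were -0.81 for Lamp1 and -0.0379 for Arsb in treated cells at day 3, and -0.17 for Ctsl and 0.64 for Cd63 at day 5. In vehicle cells they were -1.02 for Lamp1, -0.42 for Cd68 and -0.41 for Arsb at day 3, and -0.49 for Ctsl, -0.0786 for Lamp1 and -0.16 for Lamp2 at day 5. These fits include the 4 libraries with a low protein-coding share, and the cause was not tested further. Single libraries per arm at days 3 and 5 limit every call made there.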
